A study of Rattus norvegicus with 6 samples.

Results

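Interferon response and antiviral genes were followed as a group of 34 genes in rat tendon, 1 week after surgery. The 34 were given as a list of gene symbols, and each was read from probe sets that the platform annotation assigns to that gene alone, taking the probe set with the highest mean where there were several. All 34 were measured, among 22093 genes in all. They were divided by the interferon that is classically known to drive them into 9 genes of interferon-gamma type, 22 genes of type I and 3 genes of both types. Sprague-Dawley rats underwent control surgery (3 arrays) or tendon injury (3 arrays), and 1 array was made from each labelled biological replicate. The labels name no transgene or drug, and they leave out sex, age, which tendon was injured and how. Nothing says whether tendons were pooled, so p-values measure the spread between these arrays only.

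Interferons are secreted when cells sense viral or misplaced nucleic acid or when lymphocytes are activated. Type I interferons (alpha and beta) signal through Ifnar1 and Ifnar2 and the kinases Jak1 and Tyk2 to a complex that holds Stat2 and Irf9 and binds the interferon-stimulated response element. Interferon-gamma, made mainly by natural killer and T cells, signals through Ifngr1 and Ifngr2 to the gamma-activated site of its target genes, and through Irf1 to a later set of genes. Most target genes answer to both signals in part, so the division is one of emphasis. Resting tissues keep a low level of type I signalling, and macrophages that enter an injury are among the cells known to respond strongly.

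The values are log2 signals, and those of 3 arrays are given below in the order of replicates 1, 2 and 3. Injured replicates 2 and 3 stood apart from the other arrays. Across genes they correlated with each other at r = 0.965 and with the other 4 arrays at r = 0.687 to 0.833, while control arrays and injured replicate 1 correlated at r = 0.952 to 0.986 (these describe arrays, as genes are not replicates). The median of the probe sets with no gene name, taken here as a measure of background, was 5.49, 5.58 and 5.79 on the control arrays and 5.59, 6.61 and 6.50 on the injured arrays. Whether these probe sets hold transcript signal of their own was not tested. Against the control mean, the median of 10 reference genes was -0.20, -2.18 and -1.67 on the injured arrays and that of 1276 olfactory and vomeronasal receptor genes was -0.03, 2.11 and 2.03. Of 9 tenocyte markers, 9, 9 and 8 read above the background median on the control arrays, and Scx, the tendon transcription factor, was at 5.70, 5.67 and 5.75 there, close to it. Skeletal muscle markers were bright as well, and Acta1, skeletal muscle actin, reached 19.93, the maximum seen, on each control array and on injured replicate 1. The median of 5 muscle markers against the control mean was 0.22, -6.01 and -6.85 on the injured arrays.

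In injured tendon 10 interferon and antiviral genes, Gbp2, Gbp5, Psmb8, Ifit1, Ifit2, Ifi44, Ifih1, Mx2, Parp9 and Parp14, read below all controls on every injured array, and no gene passed the test over all genes. In pieces of tissue, fewer cells of a type and less RNA per cell cannot be told apart. Between injured and control tendon, 25 of the 34 genes differed below 0 and 9 above (33 and 1 after quantile normalization or centring on array medians, 31 and 3 after cyclic loess). The median difference was -0.32, against 0.15 over all genes tested. In limma, 0 of 34 genes had an adjusted p under 0.05 in either direction, as had 0.0% of all genes, and adjusted p ranged from 0.322 to 0.942. At an unadjusted p under 0.05, 11 of the 34 were lower, against a background of 7.25% of all genes, and 0 were higher, against 4.39%. For 10 of the 34, all injured arrays read below all control arrays, against 8.0% of all genes, and for 0 of the 34 all injured arrays read above, against 7.09%.

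The counts changed when single arrays were left out, as did the shares of all genes. Without injured replicate 1, limma called 12 of the 34 lower at an adjusted p under 0.05, against 21.6% of all genes, and 4 higher, against 39.1%. The 4 were Irf8, Oasl, Isg15 and Ifit3. At an unadjusted p under 0.05 that fit had 14 lower, against 23.9%, and 4 higher, against 42.4%. With another array left out, the count lower at that p became 13 without control replicate 1, against 5.18% of all genes. It became 5 without control replicate 2, against 3.05%, and 6 without control replicate 3, against 4.88%. Without injured replicates 2 and 3 it became 5 and 4, against 3.01% and 2.88%. The count of genes whose injured arrays all read below the controls became 19 without control replicate 1, against 11.8% of all genes, and 17 without injured replicate 1, against 30.4%. In the last case 7 of the 34 lay wholly above the controls, against 51.2% of all genes. A fit with array quality weights, whose estimate did not converge, called 21 of the 34 lower and 6 higher at an adjusted p under 0.05, against 31.8% and 50.2% of all genes.

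Injured replicate 1, the injured array most like the controls over all genes, showed the same lean on its own. On it, 20 of the 34 genes read below all 3 control arrays, against 24.3% of all genes, and 1, Trim25, read above them, against 21.0%. The 20 comprised 16 of the 22 type I genes, 3 of the 9 interferon-gamma type genes and 1 of the 3 genes of both types. A limma fit of this array against the controls assumes that a lone injured array varies like the controls. In it, 0 of 34 passed adjustment, against 0.0% of all genes lower and 0.0407% higher. At an unadjusted p under 0.05, 2 were lower, Gbp5 and Ifih1, against 2.03% of all genes, and 0 were higher, against 4.56%. Injured replicate 2 read below all controls for 18 of the 34, against 32.6% of all genes, and above them for 7, against 55.4%. On injured replicate 3 these counts were 20, against 33.3%, and 7, against 53.2%.

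**Figure D1:**
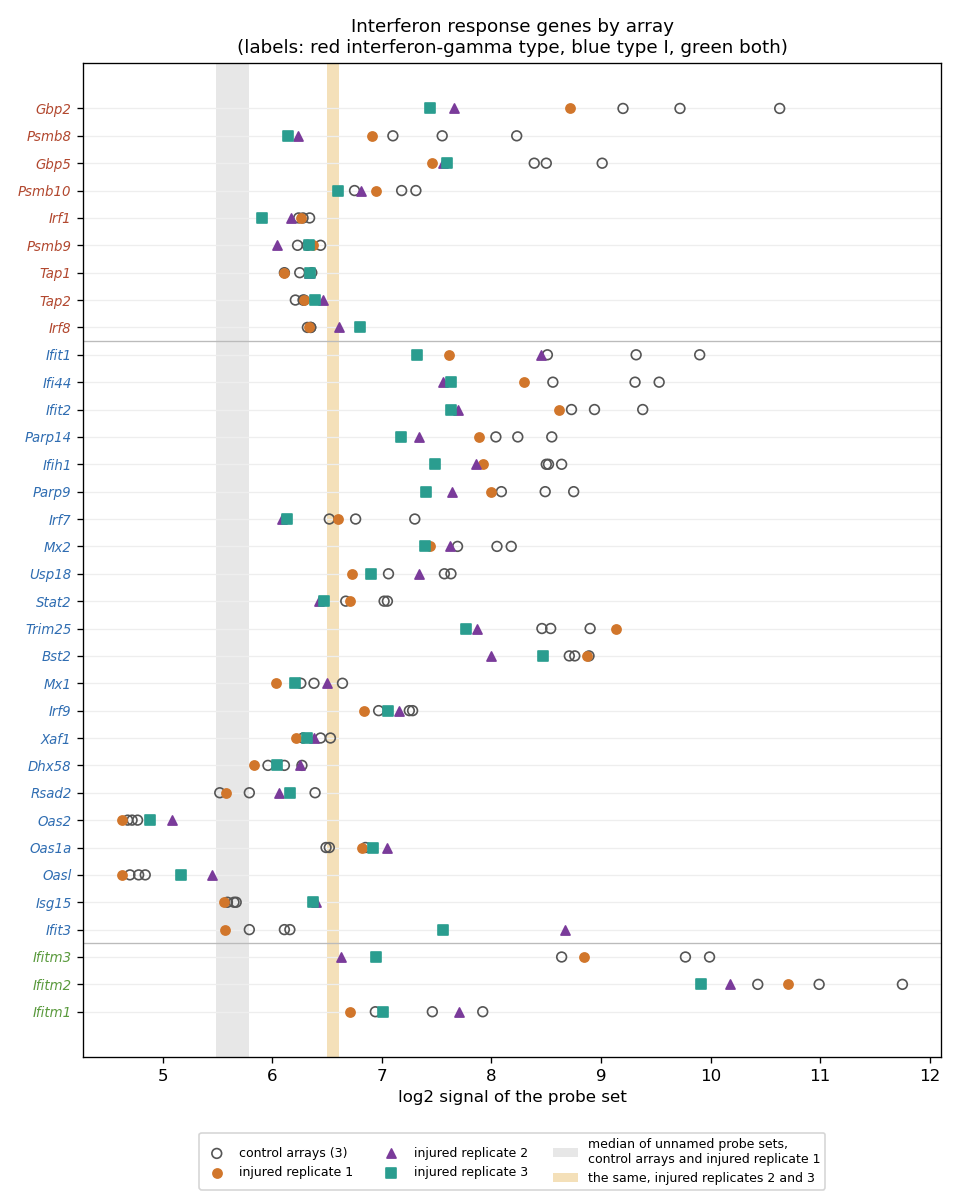
Log2 signal (horizontal axis) of each of the 34 genes on every array, open circles for the 3 control arrays and filled symbols for the 3 injured arrays, with genes ordered by their difference within each class. Shaded bands span the medians of unnamed probe sets, 5.49 to 5.79 on the control arrays and injured replicate 1 and 6.50 to 6.61 on injured replicates 2 and 3. For 10 genes, Gbp2 and Ifih1 among them, all filled symbols lie left of all open circles.

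Among genes of interferon-gamma type, Gbp2, Gbp5 and Psmb8 were low on every injured array. Gbp2 (probe set TC0200002319.rn.1), a GTPase that attacks the vacuoles of intracellular pathogens, read 9.20, 10.63 and 9.72 in control tendon and 8.72, 7.66 and 7.44 in injured tendon. Every injured array lay below every control array, and the lowest 2 were injured replicates 2 and 3. The means were 9.85 ± 0.72 and 7.94 ± 0.68 (SD, n = 3), and injured minus control was -1.91 (SE 0.50, limma adjusted p = 0.322), or 3.76-fold lower. Gbp5 (TC0200002316.rn.1), a related GTPase that promotes inflammasome assembly, read 8.39, 9.01 and 8.50 in control and 7.46, 7.56 and 7.59 in injured tendon. Its 3 injured arrays lay close together and well below the lowest control, and injured replicate 1 was the lowest. The difference was -1.10 (SE 0.21, limma adjusted p = 0.322), or 2.14-fold lower. Of the same family, Gbp1 read 7.84, 7.50 and 6.74 against 6.65, 7.14 and 7.05, and Gbp4 read 6.16, 6.46 and 6.50 against 6.19, 7.08 and 6.73, both named after their values were seen. Their groups overlapped, with differences of -0.41 (SE 0.33) and 0.29 (SE 0.27), and Gbp4 lay above all controls on injured replicates 2 and 3.

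The subunits of the immunoproteasome, which replace those of the standard proteasome and favour peptides for class I presentation, did not follow one course. Psmb8 (TC2000000132.rn.1) read 7.10, 8.23 and 7.55 in control and 6.91, 6.23 and 6.14 in injured tendon. All injured arrays were below the controls, and the difference was -1.20 (SE 0.37, adjusted p = 0.322), or 2.30-fold. On injured replicates 2 and 3 it read below the background median, which limits what can be said of its size there. A dimmer second probe set of Psmb8 went the same way, with a difference of -0.38. Psmb10 read 6.75, 7.31 and 7.18 against 6.95, 6.81 and 6.60, and Psmb9 6.23, 6.44 and 6.32 against 6.37, 6.04 and 6.33. The groups overlapped for both, with differences of -0.29 (95% confidence interval -0.81 to 0.23) and -0.08 (-0.49 to 0.32). Their constitutive counterparts, measured for the same comparison, differed by -0.80 (SE 1.01) for Psmb5, -1.38 (SE 1.00) for Psmb6 and -2.20 (SE 1.64) for Psmb7. They included Psmb5, named after its values were seen. All 3 were above all controls on injured replicate 1 and below them on injured replicates 2 and 3. Of the immunoproteasome genes, 0 were above all controls on injured replicate 1.

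The peptide transporter genes and the transcription factors of this class stayed near the control level and near background. Tap1, which with Tap2 carries peptides into the endoplasmic reticulum, read 6.11, 6.25 and 6.36 in control and 6.11, 6.33 and 6.34 in injured tendon, a difference of 0.02 (95% confidence interval -0.36 to 0.40). Tap2 read 6.21, 6.29 and 6.28 against 6.29, 6.46 and 6.39, a difference of 0.12 (-0.22 to 0.46), and its other 2 probe sets differed by 0.27 and 0.26. On injured replicates 2 and 3 both genes were below the background median of those arrays. Both were below control after quantile normalization, at -0.49 for Tap1 and -0.39 for Tap2, so no direction can be given. On assembly GRCr8, Tap2, Psmb8, Tap1 and Psmb9 follow one another on chromosome 20 with no other coding gene between them. On the deposited values, Psmb8 alone of these 4 neighbours had groups that did not overlap. After quantile normalization, centring or cyclic loess, Tap1 too read below all controls on every injured array. The difference between the neighbours was not tested.

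Irf1, the factor that carries much of the later interferon-gamma response, read 6.24, 6.28 and 6.34 in control and 6.26, 6.17 and 5.91 in injured tendon. The groups overlapped, and the difference was -0.17 (95% confidence interval -0.56 to 0.22). Irf8, a factor of macrophages and dendritic cells, read 6.35, 6.32 and 6.35 against 6.33, 6.61 and 6.80, a difference of 0.24 (-0.19 to 0.67). It read above all controls on injured replicates 2 and 3 alone and was at -0.25 after quantile normalization.

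Among type I genes, those that relay the signal had overlapping groups on the deposited values. Stat2, part of the factor complex of the pathway, read 6.67, 7.02 and 7.05 in control and 6.71, 6.43 and 6.47 in injured tendon, a difference of -0.38 (SE 0.18). Irf7, which amplifies interferon-alpha production, read 6.52, 7.30 and 6.76 against 6.60, 6.09 and 6.13, a difference of -0.59 (SE 0.27). Irf9, the DNA-binding partner of Stat2, read 6.97, 7.25 and 7.28 against 6.84, 7.16 and 7.06, a difference of -0.15 (SE 0.17). The adjusted p of the 3 was 0.322, 0.322 and 0.565. Stat2 and Irf7 were below all controls on injured replicates 2 and 3, and Irf9 on injured replicate 1.

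Of the cytosolic sensors of viral RNA, Ifih1 was low on every injured array. Ifih1 (TC0300003192.rn.1), also known as MDA5, read 8.50, 8.64 and 8.52 in control tendon and 7.92, 7.86 and 7.48 in injured tendon. No injured array reached a control array. The means were 8.55 ± 0.08 and 7.75 ± 0.24 (SD, n = 3), and the difference was -0.80 (SE 0.18, adjusted p = 0.322), or 1.74-fold. Dhx58, the related regulator LGP2, read 5.96, 6.11 and 6.27 against 5.83, 6.25 and 6.04 and differed by -0.07 (95% confidence interval -0.52 to 0.37). Trim25, a ubiquitin ligase of RNA sensing, read 8.46, 8.90 and 8.54 against 9.14, 7.87 and 7.77. It was the gene that lay above all controls on injured replicate 1 and below them on injured replicates 2 and 3, and its difference of -0.37 (SE 0.41) turned to 0.03 after cyclic loess.

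The Ifit genes, whose proteins bind foreign RNA and block its translation, split. Ifit1 (TC0100003518.rn.1) read 9.90, 9.32 and 8.51 in control and 7.61, 8.45 and 7.32 in injured tendon. Injured replicate 2 lay just under control replicate 3, and the other injured arrays lay further below. The means were 9.24 ± 0.70 and 7.79 ± 0.59 (SD, n = 3), with -1.45 between them (SE 0.46, limma adjusted p = 0.322), or 2.73-fold lower. Ifit2 (TC0100003516.rn.1) read 8.73, 9.38 and 8.94 against 8.62, 7.69 and 7.63, a difference of -1.04 (SE 0.34, adjusted p = 0.322). Its groups did not overlap, though injured replicate 1 lay just below control replicate 1. Ifit3 (TC0100003517.rn.1) went the other way on the arrays that stood apart and read 6.16, 6.11 and 5.79 in control and 5.57, 8.67 and 7.56 in injured tendon. It was below all controls on injured replicate 1 and above them on injured replicates 2 and 3, with means of 6.02 ± 0.20 and 7.27 ± 1.57 (SD, n = 3) and an injured minus control value of 1.25 (SE 0.78, limma adjusted p = 0.340). Without injured replicate 1 the difference was 2.10, with an adjusted p of 0.00706. Ifit2 and Ifit3 are adjacent coding genes on chromosome 1, and the Ifit genes are close paralogs whose probes may share targets, which was not tested.

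Of the other antiviral effectors, Ifi44 and Mx2 were low on every injured array. Ifi44 (TC0200004897.rn.1), an interferon-induced protein that restrains virus growth, read 8.56, 9.53 and 9.31 in control and 8.30, 7.56 and 7.63 in injured tendon. Every injured array was below every control array, and the difference was -1.30 (SE 0.34, adjusted p = 0.322), or 2.47-fold. Mx2, a dynamin-like GTPase, read 7.69, 8.18 and 8.05 against 7.44, 7.62 and 7.39, without overlap and with a difference of -0.49 (SE 0.19, adjusted p = 0.322). Mx1, its relative that blocks influenza and related viruses, read 6.26, 6.64 and 6.38 against 6.03, 6.50 and 6.21 and overlapped, with a difference of -0.18 (SE 0.20). Bst2, or tetherin, which holds budding virus at the cell surface, read 8.76, 8.89 and 8.71 against 8.87, 8.00 and 8.47. It was within the control range on injured replicate 1 and below it on the others, and its difference of -0.34 (SE 0.25) was 0.13 after cyclic loess.

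The ADP-ribosyltransferase family members Parp9 and Parp14, close together on chromosome 11 and known partners in interferon signalling, were low together. Parp9 (TC1100001694.rn.1) read 8.09, 8.75 and 8.49 in control and 8.00, 7.64 and 7.40 in injured tendon, a difference of -0.76 (SE 0.25). Parp14 (TC1100000701.rn.1) read 8.04, 8.55 and 8.24 against 7.89, 7.34 and 7.17, a difference of -0.81 (SE 0.26). Neither had overlapping groups, though injured replicate 1 lay just below control replicate 1 in both, and the limma adjusted p was 0.322 for both. Usp18, the protease that removes Isg15 and dampens the type I receptor, read 7.06, 7.63 and 7.57 against 6.73, 7.34 and 6.90, a difference of -0.43 (SE 0.25). It was below all controls on injured replicates 1 and 3, and the groups overlapped through injured replicate 2.

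The dimmest genes of the class included those best known as interferon markers. Isg15, a ubiquitin-like modifier, read 5.59, 5.67 and 5.65 in control and 5.56, 6.40 and 6.37 in injured tendon. It stayed close to the background median on every array, from 0.10 above it on control replicate 1 to 0.21 below it on injured replicate 2. Oas2 and Oasl, of the family whose founding enzymes make the activator of ribonuclease L, read 4.68 to 4.77 and 4.70 to 4.84 in control and 4.63 to 5.08 and 4.63 to 5.45 in injured tendon, below the background median on every array. Oas1a read 6.52, 6.49 and 6.85 against 6.82, 7.05 and 6.92, with a difference of 0.31 (95% confidence interval -0.11 to 0.73). Rsad2, or viperin, which disturbs viral replication, read 5.52, 5.79 and 6.39 against 5.58, 6.06 and 6.16, a difference of 0.03 (-0.69 to 0.76). Xaf1, a proapoptotic partner of interferon signalling, read 6.28, 6.44 and 6.53 against 6.22, 6.38 and 6.32, a difference of -0.11 (-0.48 to 0.26). Isg15, Oas1a, Oas2, Oasl and Rsad2 all differed above 0 on the deposited values and below 0 after quantile normalization, centring or cyclic loess.

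The Ifitm genes encode small membrane proteins that stop enveloped viruses from fusing and are driven by both kinds of interferon. Ifitm3 (TC0100006918.rn.1) read 8.64, 9.99 and 9.77 in control and 8.84, 6.63 and 6.95 in injured tendon. Injured replicate 1 lay within the control range, and injured replicates 2 and 3 lay far below it. The means were 9.47 ± 0.72 and 7.47 ± 1.19 (SD, n = 3). Their difference of -1.99 (SE 0.69, limma adjusted p = 0.322), or 3.98-fold lower, has a limited size, since injured replicate 2 read only 0.02 above its background median. Ifitm2 was the brightest of the 34 probe sets and read 10.43, 10.99 and 11.75 against 10.71, 10.18 and 9.91, a difference of -0.79 (SE 0.40). Ifitm1 read 6.94, 7.92 and 7.46 against 6.71, 7.70 and 7.01, a difference of -0.30 (SE 0.37). The groups overlapped for all 3, and these paralogs are similar enough that the probe sets may cross-hybridise, which was not tested.

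**Figure D2:**
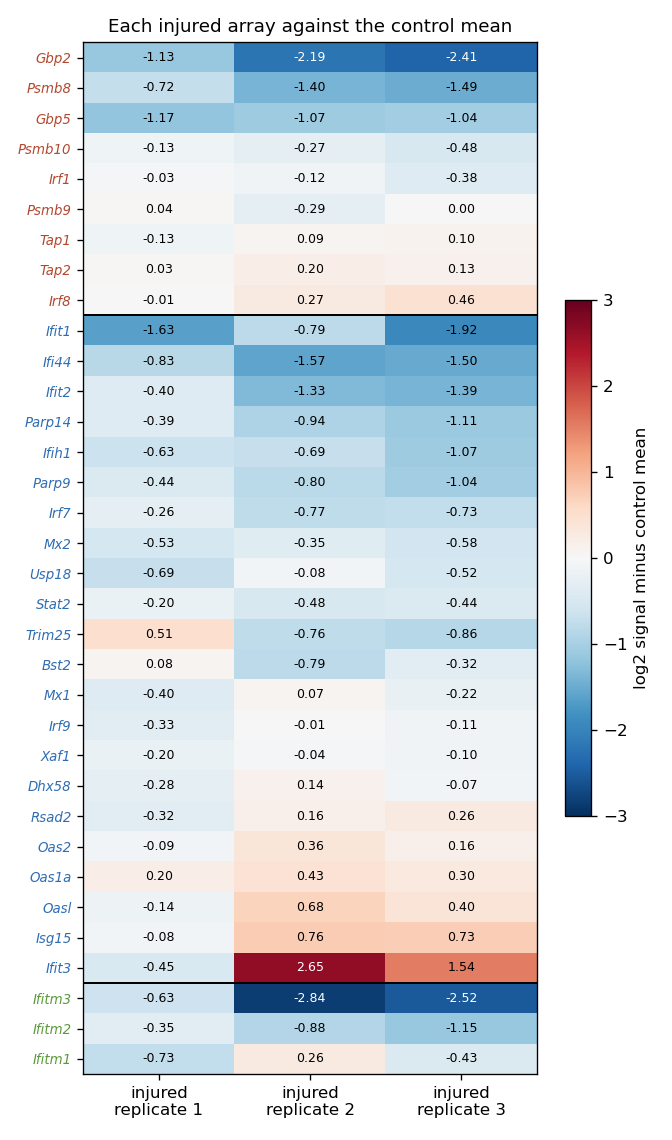
Difference in log2 signal of each injured array from the control mean, as numbers and colours (blue lower, red higher), for the 34 genes in the same order, with lines between the classes. The difference was below 0 on all 3 injured arrays for 19 genes and above 0 on all 3 for 2 genes, Tap2 and Oas1a, while 7 genes, Ifit3 among them, were below on injured replicate 1 and above on the others.

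The interferon-gamma type and type I classes were set side by side by their medians. The median difference was -0.17 over the 9 interferon-gamma type genes and -0.36 over the 22 type I genes. On the injured arrays, the median of the interferon-gamma type genes against their control means was -0.13, -0.27 and -0.38 and that of the type I genes was -0.32, -0.22 and -0.38. The control arrays spanned -0.13 to 0.11 for the first class and -0.17 to 0.10 for the second, so every injured array lay below the controls for type I genes, while injured replicate 1 was level with control replicate 1 for interferon-gamma type genes. The first class minus the second was 0.19, -0.05 and 0.00 on the injured arrays and -0.04 to 0.04 on the controls. After quantile normalization the medians were -0.67 and -0.64, after centring -0.70 and -0.88 and after cyclic loess -0.64 and -0.53, so their order depended on the scaling. Of the 9 and the 22 genes, 3 and 7 had groups that did not overlap, all lower. Over all genes, 8.0% were lower without overlap and 7.09% higher. The share lower was 21.3% at a control mean of 8 or more and 3.93% under 8. No test was made of the classes, since their members were chosen with results known.

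**Figure D3:**
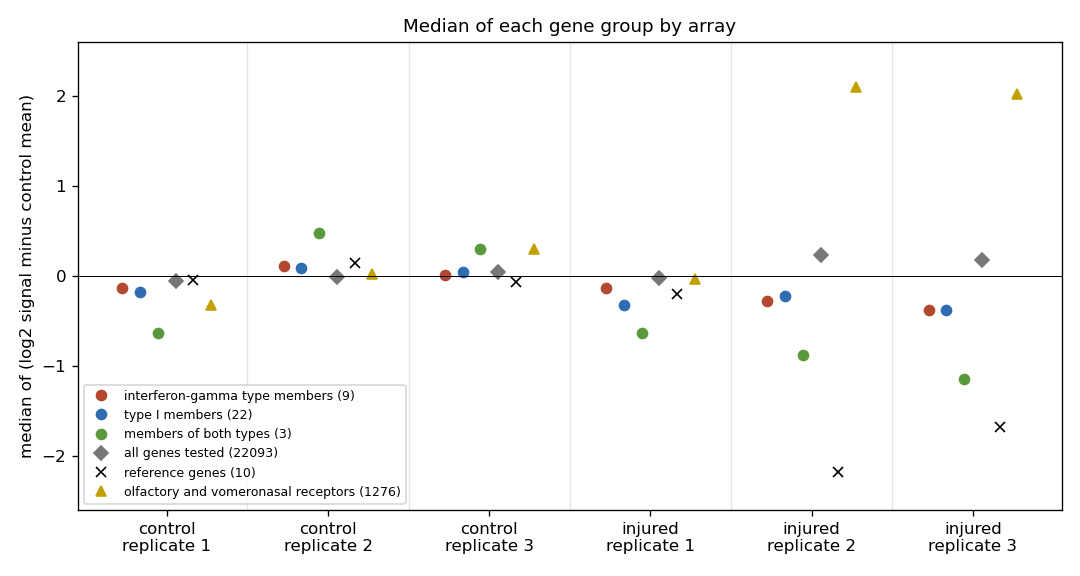
Median over the genes of each group of the log2 signal minus the gene's control mean (vertical axis) on each array. The 2 main interferon classes stayed between -0.38 and 0.11. On injured replicates 2 and 3, the genes of both types reached -0.88 and -1.15. The reference genes reached -2.18 and -1.67 there, and the receptor genes 2.11 and 2.03. The main class medians pool bright and dim genes and were not matched for level with the other groups. The 12 interferon genes with a control mean of 8 or more had a median difference of -0.92. The 22 dimmer interferon genes had a median of -0.10.

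The level of a gene went along with its difference on 2 of the injured arrays. Of the 34, the 12 genes with a control mean of 8 or more all differed below 0, with a median of -0.92. Of all 5186 genes at that level, 90.2% differed below 0, with a median of -0.91, so a lower mean was the common case there. For 8 of the 12 the injured arrays all read below the controls, against 21.3% of all genes at that level. The 22 dimmer genes had a median of -0.10, and 13 of them differed below 0, while the 16907 genes at that level had a median of 0.28, with 22.3% below 0. For 2 of the 22, Psmb8 and Mx2, the injured arrays all read below the controls, against 3.93%. Over all genes, those with a control mean from 9 to 10 had a median difference of -1.64 on injured replicate 2 and -1.48 on injured replicate 3, and those from 5 to 6 had 0.72 and 0.60. On injured replicate 1 the same medians were 0.03 and -0.03. Of the 34 genes, 27 lay below the median of all genes in their range of level on injured replicate 1, 17 on injured replicate 2 and 25 on injured replicate 3. For the 22 type I genes these counts were 19, 9 and 15. Control level and difference share the control arrays, so these counts are a description. The part of array quality or background in the differences on injured replicates 2 and 3 was not tested.

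**Figure D4:**
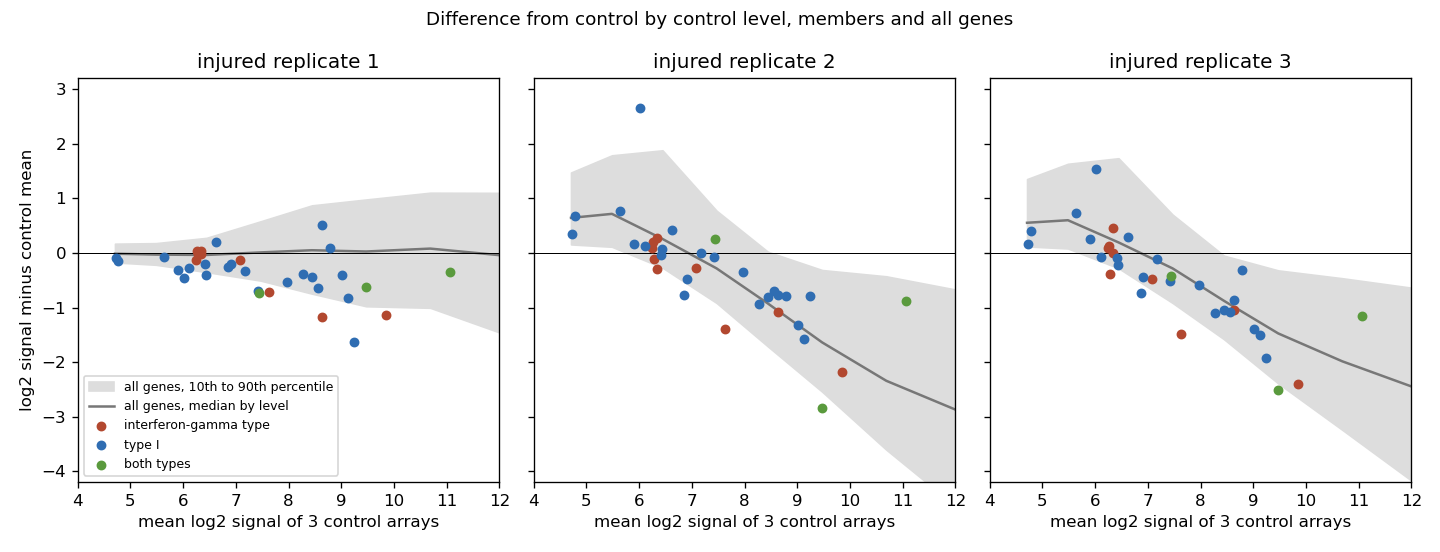
Difference of each injured array from the control mean (vertical axis, log2) against the mean log2 signal of the 3 control arrays (horizontal axis), 1 panel per injured array, with the 34 genes as points and all genes as a median line and a band from the 10th to the 90th percentile by level. On injured replicate 1 the line stayed near 0 and 27 of 34 points lay below the median of their level, while on injured replicates 2 and 3 the line itself fell with the level and many points followed it.

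Promoter windows from RefSeq on assembly GRCr8, from 250 bases before to 50 bases after the annotated start, were found for 26 of the 34 genes. Those of Ifit1, Ifit2, Mx2, Oas2, Isg15, Usp18, Dhx58 and Ifitm1 were not analysed here. The core of the interferon-stimulated response element, GAAA, any 2 bases and GAAA again on either strand, was present in 17 of 26 windows (65.4%), against 3.92% of 33469 promoter windows of the same length. It was in 6 of 9 windows of interferon-gamma type genes and in 9 of 15 of type I genes. The gamma-activated site, TTCNNNGAA, which reads the same on both strands, was in 8 of 26 windows (30.8%), against 8.87% of all windows, and in 3 of 9 and 4 of 15 by class. The 2 motifs were counted separately and overlap in Bst2. A match is a run of letters and not a shown binding site. The windows below are those of 6 genes whose injured arrays all read below all control arrays, with a match, of Parp9, which had the same course with no match, and of Ifit3, which had a match and the opposite course on injured replicates 2 and 3. Capitals mark letters that match either motif, and sequences run 5′ to 3′ on the strand of the gene.
Gbp2 (chr2:234005477-234005776, plus strand): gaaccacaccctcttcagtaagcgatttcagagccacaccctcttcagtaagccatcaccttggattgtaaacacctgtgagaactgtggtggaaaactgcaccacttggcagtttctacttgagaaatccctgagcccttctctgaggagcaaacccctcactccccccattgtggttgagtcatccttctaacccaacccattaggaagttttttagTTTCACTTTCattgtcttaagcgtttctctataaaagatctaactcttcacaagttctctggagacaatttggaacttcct
Gbp5 (chr2:233910749-233911048, plus strand): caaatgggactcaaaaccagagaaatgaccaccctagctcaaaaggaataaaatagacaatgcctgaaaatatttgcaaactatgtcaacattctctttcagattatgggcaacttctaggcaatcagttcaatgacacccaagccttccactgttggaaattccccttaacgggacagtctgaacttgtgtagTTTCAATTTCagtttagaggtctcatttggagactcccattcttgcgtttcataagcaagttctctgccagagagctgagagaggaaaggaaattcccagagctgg
Psmb8 (chr20:4656982-4657281, minus strand): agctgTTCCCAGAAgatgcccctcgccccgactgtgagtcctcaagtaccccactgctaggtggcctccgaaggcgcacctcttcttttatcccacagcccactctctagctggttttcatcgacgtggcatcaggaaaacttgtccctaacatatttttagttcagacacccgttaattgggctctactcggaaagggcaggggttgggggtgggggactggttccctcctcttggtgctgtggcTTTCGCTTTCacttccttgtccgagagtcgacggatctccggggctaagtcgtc
Ifi44 (chr2:243303791-243304090, minus strand): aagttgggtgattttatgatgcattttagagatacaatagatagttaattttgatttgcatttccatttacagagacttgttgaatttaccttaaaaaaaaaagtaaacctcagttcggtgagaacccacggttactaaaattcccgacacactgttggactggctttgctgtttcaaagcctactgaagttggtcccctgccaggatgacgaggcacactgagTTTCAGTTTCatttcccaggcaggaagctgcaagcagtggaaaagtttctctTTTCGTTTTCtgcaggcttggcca
Ifih1 (chr3:67683919-67684218, minus strand): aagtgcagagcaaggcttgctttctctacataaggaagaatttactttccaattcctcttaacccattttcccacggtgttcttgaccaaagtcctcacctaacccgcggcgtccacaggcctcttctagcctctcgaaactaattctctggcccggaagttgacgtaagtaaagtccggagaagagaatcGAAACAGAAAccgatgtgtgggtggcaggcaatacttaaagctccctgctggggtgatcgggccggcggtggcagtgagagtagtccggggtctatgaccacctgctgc
Parp14 (chr11:78407884-78408183, plus strand): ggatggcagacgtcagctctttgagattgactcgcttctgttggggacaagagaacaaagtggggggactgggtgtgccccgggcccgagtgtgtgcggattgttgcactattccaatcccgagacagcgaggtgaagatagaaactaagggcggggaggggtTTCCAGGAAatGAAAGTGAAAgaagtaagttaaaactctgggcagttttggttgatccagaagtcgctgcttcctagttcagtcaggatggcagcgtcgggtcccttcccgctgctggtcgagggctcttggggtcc
Parp9 (chr11:78318962-78319261, minus strand): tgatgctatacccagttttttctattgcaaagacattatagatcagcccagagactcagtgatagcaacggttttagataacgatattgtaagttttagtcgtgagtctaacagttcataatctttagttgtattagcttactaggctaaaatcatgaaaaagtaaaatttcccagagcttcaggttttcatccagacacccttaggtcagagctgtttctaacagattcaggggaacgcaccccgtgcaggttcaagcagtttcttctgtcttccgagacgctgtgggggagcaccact
Ifit3 (chr1:241527076-241527375, plus strand): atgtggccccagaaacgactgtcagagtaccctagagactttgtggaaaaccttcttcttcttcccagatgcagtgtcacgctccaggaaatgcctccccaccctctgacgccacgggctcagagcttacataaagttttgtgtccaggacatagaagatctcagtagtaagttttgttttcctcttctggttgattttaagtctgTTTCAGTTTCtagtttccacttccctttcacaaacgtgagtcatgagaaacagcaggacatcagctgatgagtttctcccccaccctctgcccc

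In these windows, the response element core began 31 bases before the start of Gbp2, 56 before that of Gbp5, 4 before that of Psmb8 (which also held a gamma-activated site 245 bases before it), 59 before that of Ifih1 and 44 before that of Ifit3. Ifi44 had 2 matches, 26 bases before and 26 bases after its start. Parp14 held a gamma-activated site 87 bases and a response element core 76 bases before its start. Tap1 and Tap2, whose groups overlapped on the deposited values, each held a response element core too.

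The wider pathway was read from 72 measured genes out of 80 listed, the other 8 being not analysed here. In limma, 0 of 72 passed adjustment, 12 were lower and 0 higher at an unadjusted p under 0.05 (7.25% and 4.39% of all genes), and the median difference was -0.11. For 14 of the 72 the injured arrays all read below the controls (8.0% of all genes) and for 1 they all read above (7.09%). That gene, named after its values were seen, was Cd274, the immune checkpoint ligand PD-L1, at 7.30, 7.48 and 7.42 in control and 7.50, 9.19 and 7.95 in injured tendon.

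Interferon genes themselves gave dim probe sets. All 6 measured ligand genes differed above 0, with a median of 0.68, and 0 passed at an unadjusted p under 0.05. Dim genes commonly did so. Of all genes with a control mean under 8, 22.3% differed below 0, and their median was 0.28. Olfactory and vomeronasal receptor genes had medians of 2.11 and 2.03 against the control mean on injured replicates 2 and 3. Whether the ligand genes rose beyond genes of like level was not tested. Ifna4, an interferon-alpha gene, read 6.21, 6.47 and 6.48 in control and 6.31, 8.35 and 8.24 in injured tendon, and Ifna2 5.74, 5.56 and 5.81 against 5.53, 7.02 and 6.98. Both were within the range of the controls or below it on injured replicate 1 and above it on the other injured arrays. Ifng, the interferon-gamma gene, chosen here after its values were seen, read 5.10, 4.71 and 4.97 against 4.97, 6.11 and 5.78, below the background median on every array.

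Of 7 measured receptor and kinase genes, 0 passed at an unadjusted p under 0.05, and the median was -0.26. Jak1, a kinase shared by both pathways, read 11.49, 12.07 and 11.59 against 11.77, 8.24 and 8.65, a difference of -2.16 (SE 0.96) that injured replicate 1 did not share. Ifngr1, a chain of the interferon-gamma receptor, read 10.25, 10.56 and 10.14 against 11.14, 9.63 and 8.71, a difference of -0.49 (SE 0.62).

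Among sensors and adaptors, 1 of 12 genes was lower at an unadjusted p under 0.05, against 7.25% of all genes. It was Tlr3, the endosomal receptor of double-stranded RNA, which read 9.26, 9.02 and 8.69 in control and 7.23, 7.20 and 7.24 in injured tendon. The 3 injured arrays nearly coincided, injured replicate 1 included, far below the controls. The difference was -1.77 (SE 0.19, limma adjusted p = 0.226), or 3.40-fold. Mavs, the adaptor of RNA sensing, differed by -0.58 (SE 0.38). Of the 6 genes that restrain the pathway, 1 was lower, Pias1, an inhibitor of interferon signalling, at -1.23 (SE 0.44), and Socs3, a feedback inhibitor, was at 0.33 (SE 0.31). On the injured arrays Pias1 lay -0.22, -1.70 and -1.76 from its control mean. The medians of all genes with a control mean from 10 to 12 were 0.08, -2.34 and -1.99 there.

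Of 24 further antiviral effectors, 7 were lower at an unadjusted p under 0.05 and 0 higher, against 7.25% and 4.39% of all genes. For 8 the injured arrays all read below the controls, against 8.0%. On injured replicate 1, 18 read below all controls, against 24.3%, and 0 above, against 21.0%. Ifi27, a mitochondrial and nuclear protein strongly induced by interferon-alpha, read 13.58, 13.23 and 14.07 in control and 11.09, 7.08 and 8.04 in injured tendon. Every injured array was far below the controls, and the difference was -4.89 (SE 1.04, adjusted p = 0.322), or 29.7-fold. Its size is limited, since injured replicates 2 and 3 read only 0.47 and 1.54 above their background medians. On the injured arrays Ifi27 lay -2.54, -6.55 and -5.59 from its control mean. The medians of all genes with a control mean from 12 to 14 were -0.11, -3.18 and -2.71 there. Sp100, a nuclear body protein, read 10.88, 11.40 and 10.41 against 10.74, 8.26 and 7.70, within the control range on injured replicate 1, with a difference of -2.00 (SE 0.83).

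Of 6 other antigen processing genes, 3 were lower at an unadjusted p under 0.05, against 7.25% of all genes. Erap1, which trims peptides for class I molecules, read 10.56, 10.75 and 10.40 in control and 9.59, 7.93 and 8.43 in injured tendon, without overlap and with a difference of -1.92 (SE 0.44, adjusted p = 0.322). On the injured arrays it lay -0.98, -2.64 and -2.14 from its control mean. All genes with a control mean from 10 to 12 had medians of 0.08, -2.34 and -1.99 there. B2m, the light chain of class I molecules, read 14.62, 15.31 and 14.41 against 14.39, 12.15 and 11.75, with a difference of -2.02 (SE 0.74). On injured replicates 2 and 3 it lay -2.63 and -3.03 from its control mean. The medians of all genes with a control mean from 14 to 20 were -3.905 and -3.015 there. Of 8 chemokines and enzymes driven by interferon-gamma, 0 passed in either direction, and the median was 0.59. Nos2, the inducible nitric oxide synthase, read 5.23, 5.32 and 5.37 against 5.34, 10.88 and 8.26, and Cxcl11, a chemokine for activated T cells, read 5.79, 6.06 and 6.22 against 6.07, 7.68 and 7.78. Both were within the control range on injured replicate 1.

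Markers of cells that carry interferon responses were read on the same arrays. The counts below stand against 7.25% of all genes lower and 4.39% higher at an unadjusted p under 0.05. Of 9 macrophage markers, 3 were lower and 0 higher at an unadjusted p under 0.05, and the log2 of their summed signal was 11.03 to 12.31 in control and 10.83 to 11.07 in injured tendon. Of 8 neutrophil markers, 0 were lower and 1 was higher, with sums of 8.40 to 8.64 in control tendon and 8.52, 11.76 and 10.11 on the injured arrays. Of 9 T and natural killer cell markers, 1 was lower, Cd4, and 1 higher, Cd3g, named after its values were seen. Cd4 was the only 1 of the 9 to differ below 0, and 8 differed above. Their sums were 8.60 to 9.24 in control and 8.62 to 9.50 in injured tendon. Of 6 dendritic cell markers 1 was higher, with sums of 8.39 to 8.60 and 8.63 to 9.35. Of 4 B cell markers 0 passed, with sums of 7.45 to 7.48 and 7.52 to 8.01. For these and for the T, natural killer and dendritic cell markers, the lowest injured sum was on injured replicate 1. On injured replicates 2 and 3, 0 of the 4 B cell markers read above the background median. Of the T and natural killer cell markers 2 and 3 did, and of the dendritic cell markers 2 and 2. Their medians against the control mean there were 0.53 and 0.56 (B), 0.55 and 0.58 (T and natural killer) and 0.94 and 0.81 (dendritic). All genes with a control mean from 5 to 6 had 0.72 and 0.60. Whether these markers rose beyond genes of like level was not tested. Of 6 endothelial markers 1 was lower, with sums of 13.30 to 14.58 in control tendon and 14.68, 10.63 and 10.73 on the injured arrays. Of 9 tenocyte markers 8 were lower, with sums of 16.74 to 20.06 and 11.10 to 13.79. Of 5 skeletal muscle markers 0 passed, and all 5 differed below 0, with sums of 21.60 to 21.86 in control tendon and 21.79, 16.42 and 19.89 on the injured arrays. Acta1 read 19.86 on injured replicate 3, the maximum of that array, so the sum there is close to Acta1 alone. The median of the 5 against the control mean was -6.01 and -6.85 on injured replicates 2 and 3. Ckm, muscle creatine kinase, read 18.70, 17.39 and 17.31 against 18.15, 9.91 and 10.72, within the control range on injured replicate 1 and far below it on the others. The part of these cell types in the interferon values was not tested.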

How the data were processed

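Tendon RNA of 3 labelled biological replicates per group was hybridised to Affymetrix arrays. The array titles name a rat array and the extraction protocol a mouse array of the same series, while the probe set names are those of rat. The deposited values are log2 signals per probe set. Affymetrix Expression Console is named in the submitters' processing notes, with neither version nor normalization given in the sources used here. Arrays have no read depth, and their number limits the precision.

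Of 68842 probe sets, 23446 had 1 gene symbol, 505 several and 44891 none. They gave 22093 genes, each read from its probe set with the highest mean, and entrez identifiers of 22077 probe sets matched RefSeq on GRCr8. Injured and control arrays were compared with limma 3.58.1 in R 4.3.3 (lmFit and eBayes, two-sided, Benjamini-Hochberg over all 22093 genes), with no further normalization, and adjusted p-values are from that fit unless named otherwise. A fold is 2 raised to the difference of mean log2 signals. With 3 arrays against 3, an exact permutation test cannot go below p = 0.1, so none was used. The limma step was tested on simulated data. Alternatives were other normalizations, a filter on dim genes, other probe set and variance choices, array quality weights, a replicate block and left out arrays. All 34 genes were named. Of each other pathway list, the 2 genes with the largest absolute difference were named, and others are marked as chosen after their values were seen. The members and all lists were chosen with earlier results of these data known.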

Additional observations from a re-analysis of the deposited data

Results flagged for a closer look

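The median log2 signal of the 44891 probe sets with no gene name, which served above only as a measure of background, averaged 6.23 ± 0.56 over the injured arrays and 5.62 ± 0.15 over the control arrays (SD, n = 3). It drew attention because it lay above the control level in probe sets that are tested in no comparison. Injured replicate 1, at 5.59, lay within the control range, and injured replicates 2 and 3, at 6.61 and 6.50, lay above it. On those arrays 14 and 14 of the 34 interferon genes read below this median, against 2 to 3 on the control arrays and 5 on injured replicate 1. The difference between the groups was not tested.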

How the results depend on the processing

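Of 506 repeats of single-gene differences, 417 kept direction and side of the threshold, 43 passed it and 46 changed sign. After quantile normalization, 17 of the 34 genes were lower at an unadjusted p under 0.05 (11.3% of all genes) and 19 had injured arrays all below the controls (14.8%), a count added after seeing the data. Centring on array medians gave 20 (11.4%) and 20 (13.5%), and cyclic loess 15 (9.63%) and 15 (13.5%). Of the 10 original non-overlapping genes the last kept 7, losing Ifit1, Ifit2 and Parp9. Each of these scalings added Dhx58, Irf9, Mx1, Rsad2, Tap1, Usp18 and Xaf1. Stat2 was added by quantile normalization and centring, Oas2 by quantile normalization and loess, and Ifitm1 and Oasl by centring. Overlap is stated above on the deposited values. Median differences became -0.67 (quantile), -0.85 (centred) and -0.57 (loess) over all 34, -0.67, -0.70 and -0.64 for interferon-gamma type and -0.64, -0.88 and -0.53 for type I. Without any 1 replicate, these medians ran from -0.46 to -0.21, from -0.25 to -0.13 and from -0.41 to -0.26. Such fits called 0 to 13418 genes and 0 to 16 of the 34 at an adjusted p under 0.05, the maxima of both being without injured replicate 1. They had 4 to 14 of the 34 lower at an unadjusted p, against 2.88% to 23.9% of all genes. From 0 to 4 were higher, against 0.756% to 42.4%, and the maxima of these counts and shares were without injured replicate 1. For 10 to 19 the injured arrays all read below the controls, against 8.58% to 30.4%. Injured replicate 1 alone gave 9 called genes, and 2 of the 34 lower at an unadjusted p.

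In the order quantile, centred, loess, signs turned for Irf8 (-0.25, -0.29, -0.27), Tap1 (-0.49, -0.51, -0.53), Tap2 (-0.39, -0.41, -0.42), Oas1a (-0.16, -0.22, -0.10), Oas2 (-0.25, -0.39, -0.26), Oasl (-0.13, -0.22, -0.12), Isg15 (-0.066, -0.053, -0.0925) and Rsad2 (-0.48, -0.49, -0.53), and after loess for Bst2 (0.13) and Trim25 (0.034). With injured replicate 1 alone they turned for Irf8 (-0.01), Psmb9 (0.04), Tap1 (-0.13), Oas2 (-0.093), Oasl (-0.14), Isg15 (-0.077), Ifit3 (-0.45), Rsad2 (-0.32), Bst2 (0.083) and Trim25 (0.51). Without any 1 replicate they ran from -0.045 to 0.095 for Tap1, -0.16 to 0.28 for Rsad2, -0.18 to 0.032 for Dhx58 and -0.15 to 0.02 for Psmb9. The cause of these changes was not tested.

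The replicate block left 0 genes past adjustment and 7 of the 34 lower at an unadjusted p, against 9.54% of all genes. Deviations of same-numbered arrays correlated at r = 0.48, -0.04 and 0.59, and control replicate 3 correlated best with injured replicate 2 (0.65). Deviations from a group mean of 3 arrays are tied to each other, so these values cannot decide whether same-numbered samples were paired. With array quality weights, 18098 genes and 27 of the 34 passed adjustment. At an unadjusted p, 21 were lower and 6 higher, against 32.1% and 50.7% of all genes. The medians were -0.55 over all 34 and -0.37 for interferon-gamma type. That estimate did not converge and left weights from 0.0531 for injured replicate 1 to 29 for injured replicate 3, so these counts are no dependable test. Dim signals limit what can be read: 14 of the 34 genes on injured replicate 2 and 14 on injured replicate 3 read below the background median, and have no dependable size there. Whether genes above that median have a dependable size was not tested, and differences on these 2 arrays went along with the control level.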
